A study of Mus musculus with 10 samples.

Results

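Arl5a, Arl5b and Arl5c encode the ARL5 small GTPases, and their RNA was measured in mouse naive CD4 T cells given Compound 10 with or without stimulation. Arl5c was chosen by its rise with Compound 10 in stimulated cells, the largest among called genes that met the limits on expression and class given below, and Arl5a and Arl5b were added as its paralogs, so the set holds 3 of the 45321 genes with a row of counts. The choice rests on the measured difference between Compound 10 and vehicle in stimulated cells, so for Arl5c every contrast that uses stimulated libraries is given as a description, without a p-value. The 3 genes have 11 annotated transcripts in the tables, and all 3 genes passed the filter on low counts.

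The cells were splenic CD4 T cells of C57BL/6 mice, sorted for the naive phenotype as CD4+CD62L+CD69- cells, and no group carried an altered gene. Every group had a pre-treatment of 1 h. Group DMSO_US (n = 3) had the solvent DMSO and no stimulation, and group Comp10_US (n = 2) had 12.5 µM Compound 10 and no stimulation. Group DMSO_PI (n = 2) had DMSO and group Comp10_PI (n = 3) had 12.5 µM Compound 10, and both then had 2 h of 10 nM PMA with 1 µM ionomycin. Whether unstimulated cells were kept for those further 2 h is not listed, so the part of time in the stimulation contrasts was not tested. The phorbol ester PMA switches on protein kinase C, ionomycin lets calcium into the cell, and together they replace the signal of the T cell receptor. The submitters' design text calls the compound an inhibitor of NFAT:AP-1, the pairing of the calcium-regulated factor NFAT with Fos and Jun proteins, and the comparison asks what it changes at rest and after activation. The age of the mice, in the sources used here, is not given. The labels also leave unsaid whether libraries within a group stem from different mice or cultures, so a p-value here reflects only how far these libraries scatter, and that scatter may be technical.

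ARL5 proteins belong to the ARF family of small GTPases, which switch between a GDP-bound form and a GTP-bound form that sits on membranes. In the active form, ARL5 proteins sit on the trans-Golgi network and recruit tethers, among them the GARP complex, which captures vesicles returning from endosomes. Exchange factors load ARF family proteins with GTP, and GTPase-activating proteins (GAPs) end the active state.

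The following stretches of coding sequence show the region of the P-loop, the part of a small GTPase that holds the phosphates of the nucleotide, because it is the part by which the family is most easily recognised and it shows how far the paralogs differ in letters. They are taken from the GENCODE M21 transcripts, 5′ to 3′, at coding bases 52 to 105 of Arl5a-201 and Arl5c-201 and 55 to 108 of Arl5b-202, and the capitals mark the codons of the P-loop.
Arl5a: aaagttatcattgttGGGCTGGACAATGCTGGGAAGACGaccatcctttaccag
Arl5b: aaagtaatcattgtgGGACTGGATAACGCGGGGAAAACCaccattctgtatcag
Arl5c: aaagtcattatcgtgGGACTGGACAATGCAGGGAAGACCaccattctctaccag
Over 537 aligned coding bases, Arl5a and Arl5b were identical at 72.6%, Arl5a and Arl5c at 66.1%, and Arl5b and Arl5c at 69.6%. The translated residues were identical at 79.9%, 70.4% and 72.6% in the same order. No stretch of 31 bases occurred in transcripts of more than 1 of the 3 genes, and the longest run shared by their coding sequences was 15 bases, between Arl5b and Arl5c. Arl5c shared 5.09% of its 2043 stretches of 31 bases with transcripts of other genes, Arl5b 0.124% and Arl5a 0. A stretch of this length thus belongs to at most 1 of the 3 genes.

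The 3 genes lie apart in the genome. In GENCODE M21 (mm10), Arl5a is on chromosome 2 at 52397951 to 52424901 on the minus strand, with 2 transcripts. Arl5b is on chromosome 2 at 15049395 to 15082456 on the plus strand, with 7 transcripts. Arl5c is on chromosome 11 at 97989578 to 97996181 on the minus strand, with 2 transcripts.

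The libraries held between 10694591 and 33486259 estimated counts. Levels below are CPM after TMM scaling, which compare 1 gene between groups only. A gene is described as called, risen or fallen where the adjusted p of edgeR's quasi-likelihood test, over the 14417 genes tested, was under 0.05. In these bulk samples, fewer cells with a transcript and less of it per cell cannot be told apart. Summed markers of T cell identity lay between 2212 and 3238 CPM, and each of the 10 markers had counts. Markers of naive T cells summed to 2435 to 2853 CPM in unstimulated libraries. They summed to 1078 to 1207 in stimulated vehicle libraries and 1545 to 1598 in stimulated Compound 10 libraries. On the scale of library totals they thus moved with the stimulation and, in stimulated cells, with the compound. How far they moved on the TMM scale was not computed. Summed markers of B cells (3.46 to 12.5 CPM), CD8 T cells (1.99 to 8.59), NK cells (0.280 to 5.66, 1 of 5 at 0 throughout) and erythroid cells (0 to 0.625, 2 of 6 at 0 throughout) were low in all libraries. The 9 myeloid markers summed to 17.8 to 32.5 CPM in unstimulated vehicle libraries, 10.4 to 12.3 in unstimulated Compound 10 libraries and 2.15 to 7.35 in stimulated libraries. The 5 markers listed for plasmacytoid dendritic cells, some of which T cells also express, summed to 30.7 to 48.4 CPM in unstimulated and 65.8 to 89.2 in stimulated libraries. Markers of regulatory T cells summed to 64.5 to 195 CPM and markers of memory or effector cells to 54.1 to 177, and both sums were highest in stimulated vehicle libraries. The part of these sums in the results below was not tested.

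**Figure D1:**
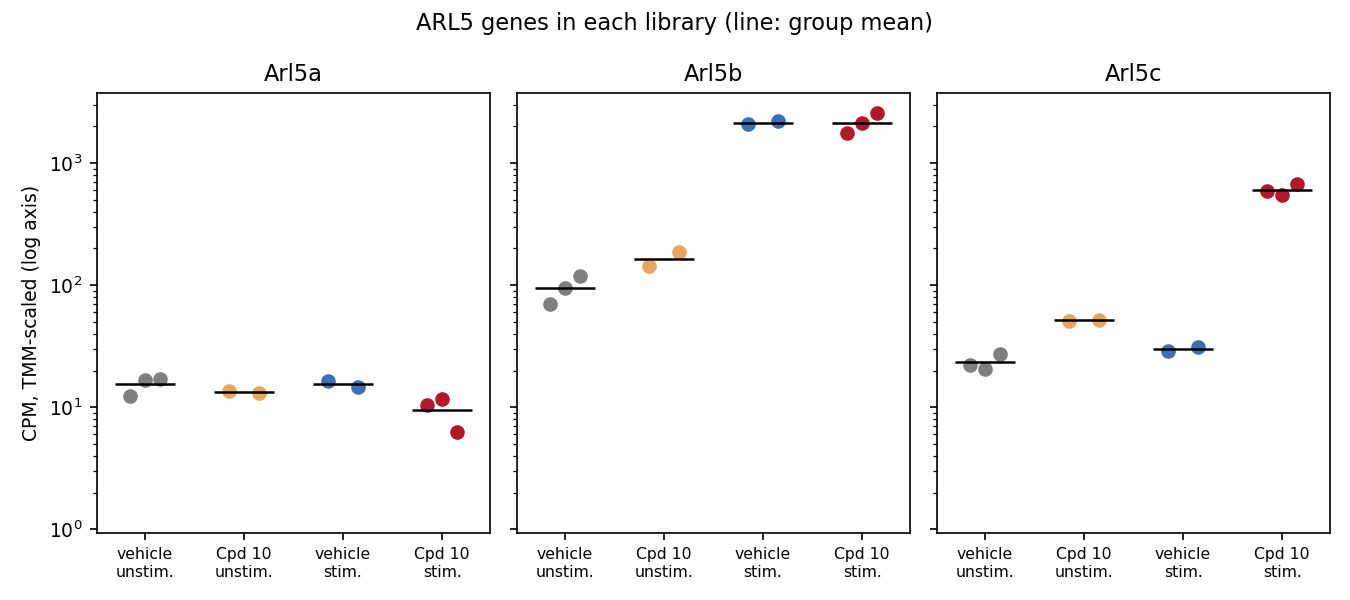
CPM of Arl5a, Arl5b and Arl5c in each of the 10 libraries, by group, on a log axis, with a line at the group mean. Arl5c stands at 552 to 669 CPM in the 3 stimulated Compound 10 libraries and at 51.7 CPM or lower in the others, Arl5b is high in all 5 stimulated libraries, and Arl5a stays between 6.28 and 16.9 CPM.

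Arl5c was low without Compound 10 and high where stimulation and the compound met. The unstimulated vehicle libraries held 22.4, 20.4 and 27.4 CPM, and the stimulated vehicle libraries held 28.97 and 31.1 CPM. The unstimulated Compound 10 libraries held 51.2 and 51.7 CPM. The stimulated Compound 10 libraries held 592, 552 and 669 CPM. On this scale the 4 groups did not overlap, and the step to the stimulated Compound 10 libraries was by far the widest. In TPM the vehicle groups did overlap, with 32.8, 30.37 and 41.4 in unstimulated and 25.8 and 30.38 in stimulated libraries. In means, Arl5c was at 23.4 ± 3.60 CPM (SD, n = 3) in unstimulated vehicle cells, 51.5 ± 0.369 (SD, n = 2) in unstimulated Compound 10 cells, 30.02 ± 1.49 (SD, n = 2) in stimulated vehicle cells and 604 ± 59.7 (SD, n = 3) in stimulated Compound 10 cells.

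In unstimulated cells, Arl5c rose 2.20-fold with Compound 10, a log2 fold change of 1.14 ± 0.16 (SE), with an adjusted p of 0.00286 in edgeR's quasi-likelihood test. The difference between the unstimulated groups was not used in choosing the gene. Their libraries did enter the average expression and the estimate of spread behind that choice. Arl5b also rose in this contrast, so 2 of the 3 members were called, both higher, where 8.43% of all tested genes were called, 4.65% as higher and 3.78% as lower. All 10 libraries entered the fit, so the estimate of spread came in part from stimulated libraries, and with only the 5 unstimulated libraries in the fit Arl5c stood at 1.15 with an adjusted p of 0.0540 in edgeR's test. The deposited names of the libraries carry numbers that fall into 3 runs, called index runs here, and what these numbers stand for is not given. Within the 2 runs that hold both unstimulated groups the log2 difference was 1.33 and 0.92.

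In stimulated cells, the contrast by which it was chosen, Arl5c was 20.1-fold higher with Compound 10 than with vehicle, a log2 fold change of 4.33 ± 0.19 (SE). Within the 2 index runs that hold both groups it was 4.35 and 4.15. Leaving out any 1 library kept the log2 fold change of Arl5c between 4.25 and 4.39 in stimulated cells, and between 1.04 and 1.27 in unstimulated cells, where the call was kept each time. Of the genes called in this contrast, 1111 were higher, had an average log2 CPM of at least 3, had no overlap between the groups and belonged to no class left out, such as unnamed gene models. Arl5c was at the top of their order, and Tpx2, a spindle assembly factor, came next at 3.58, followed by Sh3d21 at 3.57, the mitotic kinesin Cenpe at 3.33 and the chromosomal passenger protein Incenp at 3.11. Without the limit on expression, Arl5c was at place 92 of all tested genes, and the 91 genes above it had an average log2 CPM of 2.60 or lower.

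Stimulation alone moved Arl5c little. Under vehicle the log2 fold change of stimulated against unstimulated cells was 0.36 ± 0.16 (SE), and this sign rests on the scaling, since the value was -0.41 with library totals alone and -0.30 on log2(TPM + 1). With Compound 10 the same step was 3.55 ± 0.18 (SE), an 11.7-fold rise. The difference between the compound's effects in stimulated and unstimulated cells was 3.19 ± 0.24 (SE) on the log2 scale.

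**Figure D2:**
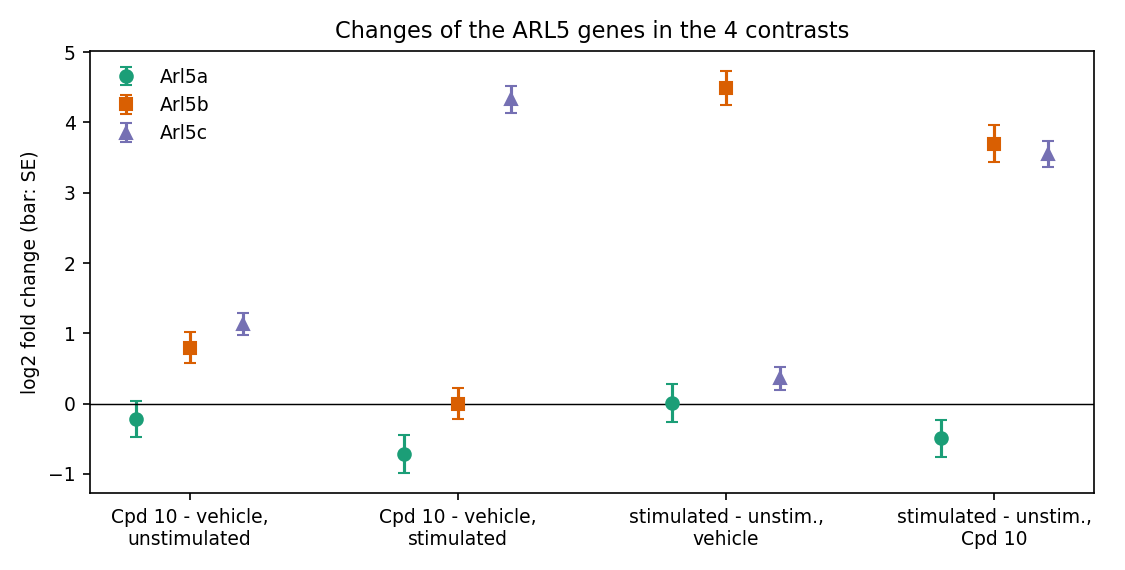
Log2 fold changes of Arl5a (circles), Arl5b (squares) and Arl5c (triangles) in 4 contrasts, with bars for the SE. Arl5c is highest in both contrasts of Compound 10 with vehicle, at 1.14 and 4.33, the second being the contrast by which it was chosen. Arl5b is highest in both contrasts of stimulation, at 4.49 and 3.70.

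The split of Arl5c between its transcripts differed by group too. Arl5c-201 encodes the protein of 179 residues, and the last exon of Arl5c-202 runs 502 bases into intron 3. Arl5c-201 carried 93.3%, 93.7% and 94.8% of the gene's counts in stimulated Compound 10 libraries, and 76.4% and 70.9% in stimulated vehicle libraries. It carried 85.4%, 88.6% and 68.8% in unstimulated vehicle libraries, and 88.2% and 85.8% in unstimulated Compound 10 libraries. Per 100 counts of Arl5c-201, Arl5c-202 had 7.23, 6.77 and 5.52 counts in stimulated Compound 10 libraries, below every other library, where it had 12.9 to 45.5. In unstimulated cells Arl5c-201 rose with Compound 10 by 1.24 ± 0.12 (SE) on the log2 scale (adjusted p = 0.0118, edgeR over 37354 transcripts), where 0.284% of transcripts were called. Arl5c-202 stood at 0.47 ± 0.50 (SE) in that contrast (edgeR adjusted p = 0.889). In stimulated cells the log2 fold change was 4.74 for Arl5c-201 and 2.26 for Arl5c-202, so both transcripts, each annotated as protein-coding, were higher with the compound, Arl5c-201 by more.

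Arl5b was the member that followed stimulation, with or without the compound. It was at 70.4, 94.9 and 119 CPM in unstimulated vehicle libraries and at 144 and 185 CPM in unstimulated Compound 10 libraries. Stimulated vehicle libraries held 2082 and 2193 CPM. Stimulated Compound 10 libraries held 1758, 2112 and 2543 CPM. All 5 stimulated libraries were above all 5 unstimulated ones, and the 2 stimulated groups overlapped. Stimulation raised Arl5b 22.5-fold under vehicle, by 4.49 ± 0.24 (SE) on the log2 scale (adjusted p = 1.57e-07, edgeR). With Compound 10 it raised Arl5b 12.99-fold, by 3.70 ± 0.26 (edgeR adjusted p = 3.86e-06). Under the 10 other settings the step lay between 3.72 and 4.69 under vehicle and between 3.08 and 3.84 with the compound. Under vehicle, Arl5b was the called member of the pair Arl5a and Arl5b, beside 39% of all tested genes called (19.5% higher and 19.4% lower), and with Compound 10 the same held beside 26.5% (12.8% higher and 13.7% lower). Within index runs the step was 4.89 and 4.53 under vehicle and 3.88 and 3.78 with the compound.

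In unstimulated cells Arl5b was 1.73-fold higher with Compound 10, a log2 fold change of 0.79 ± 0.22 (SE) with an adjusted p of 0.0494 in edgeR's test. The means were 164 ± 29.2 CPM (SD, n = 2) with the compound and 94.8 ± 24.4 (SD, n = 3) with vehicle, without overlap between the libraries. This call sits at the threshold, and it was lost when any library other than DMSO_US 3 or Comp10_PI 3 was left out (edgeR adjusted p up to 0.268, with log2 fold changes of 0.61 to 0.99 over all 10 omissions). Within index runs the difference was 0.60 and 0.63.

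In stimulated cells Arl5b did not pass the test between Compound 10 and vehicle, with a log2 fold change of 0.00 ± 0.22 (SE; adjusted p = 1, edgeR), a value whose sign changes with the processing. Its means were 2138 ± 393 CPM (SD, n = 3) with the compound and 2138 ± 78.0 (SD, n = 2) with vehicle. Neither Arl5a nor Arl5b was called here, where 23.2% of tested genes were, 10.4% as higher and 12.8% as lower. The difference between the compound's effects in stimulated and unstimulated cells was -0.79 ± 0.31 (SE) for Arl5b (edgeR adjusted p = 0.162), so it missed the threshold. It passed with the index runs as a factor (-0.85, edgeR adjusted p = 0.00523) and without DMSO_US 3 (-0.99, edgeR adjusted p = 0.0448). In the interaction 6.63% of tested genes were called.

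Arl5a differed least of the members between group means, though its SE in the 4 contrasts (0.26 to 0.27) was above that of Arl5c (0.16 to 0.19). It was at 12.5, 16.8 and 16.9 CPM in unstimulated vehicle libraries and at 13.5 and 12.98 CPM in unstimulated Compound 10 libraries. Stimulated vehicle libraries held 16.5 and 14.6 CPM. Stimulated Compound 10 libraries held 10.4, 11.7 and 6.28 CPM, which is below each library of the other groups. The difference in stimulated cells was -0.72 ± 0.27 (SE) on the log2 scale and missed the threshold (adjusted p = 0.0757, edgeR). It was called by DESeq2 (-0.75, adjusted p = 0.0412), and over the 10 other settings it ran from -0.75 to -0.16. In TPM summed over the gene, the stimulated groups overlapped, with Comp10_PI 3 at 3.19 and the vehicle libraries at 3.10 and 2.87. In Comp10_PI 3, 2.06 of that TPM came from 5.87 estimated counts on Arl5a-202, a retained-intron transcript of 452 bases. On Arl5a-201 the stimulated groups did not overlap, with 2.07, 2.55 and 1.13 TPM with the compound and 3.10 and 2.87 with vehicle. The limma setting used the gene sums. In unstimulated cells the compound's difference was -0.22 ± 0.26 (edgeR adjusted p = 0.670). Stimulation gave 0.01 ± 0.26 under vehicle (edgeR adjusted p = 0.982), with a sign that changes with the scaling, and -0.49 ± 0.26 with Compound 10 (edgeR adjusted p = 0.205). With library totals alone, both stimulation contrasts of Arl5a passed as falls, at -0.77 (edgeR adjusted p = 0.0357) and -1.08 (edgeR adjusted p = 0.00811). That scaling moved the median of all tested genes to -0.83 under vehicle and -0.60 with Compound 10. All of the gene's counts fell on the coding transcript Arl5a-201, except in Comp10_PI 3, where Arl5a-202 took 8.27%.

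Levels of different genes can be set side by side only per transcript length, for which the deposited TPM of the longest transcript of each gene annotated as protein-coding was used. In unstimulated vehicle libraries Arl5c-201 was at 20.7 to 23.9 TPM, Arl5b-202 at 5.82 to 8.02 and Arl5a-201 at 4.23 to 5.97, so Arl5b-202 and Arl5a-201 overlapped. In unstimulated Compound 10 libraries the same 3 transcripts were at 47.0 and 54.1, 10.6 and 11.1, and 3.73 and 4.41 TPM. In stimulated vehicle libraries Arl5b-202 led with 89.0 and 93.1 TPM, before Arl5c-201 with 15.3 and 15.95 and Arl5a-201 with 2.87 and 3.10. In stimulated Compound 10 libraries Arl5c-201 led again with 406 to 458 TPM, before Arl5b-202 with 81.9 to 103 and Arl5a-201 with 1.13 to 2.55. Per length, Arl5c-201 was thus the highest of these 3 transcripts in every group except stimulated vehicle. Summed over all transcripts of a gene, Arl5c made up 1.29% and 1.34% of the TPM of the 3 genes in stimulated vehicle libraries, and 15.5% to 23.2% in the other libraries. Arl5b made up 98.5% in both stimulated vehicle libraries and 74.7% to 83.1% in the others, and Arl5a 3.05% or less throughout. These sums put Arl5b above Arl5c in every library, unlike the 3 transcripts compared above, and they include the Arl5b transcripts described next.

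Most counts of Arl5b fell on transcripts annotated as targets of nonsense-mediated decay. Arl5b-203 took 40.1% to 54.0% and Arl5b-204 took 16.7% to 24.1% of the gene's counts across the 10 libraries, and both are annotated in that way. Arl5b-202, at 6981 bases the longest of its transcripts annotated as protein-coding, took 24.4% to 32.9%, and Arl5b-206 and Arl5b-207 took at most 0.692% and 0.889%. The kallisto program divides reads among transcripts that share exons, so these shares are estimates. Arl5b-202 alone rose with stimulation under vehicle by 4.38 on the log2 scale (adjusted p = 7.49e-06, edgeR over transcripts), where 15.1% of transcripts were called. Arl5b-203 and Arl5b-204 rose with it, by 4.27 and 4.57 (edgeR adjusted p = 0.000246 and 0.000141). Between Compound 10 and vehicle in stimulated cells, Arl5b-203 stood at 0.11 (edgeR adjusted p = 0.931) and Arl5b-204 at -0.17 (edgeR adjusted p = 0.853). In the same contrast Arl5b-202 stood at 0.01 ± 0.16 (SE; edgeR adjusted p = 0.991). In unstimulated cells it stood at 0.79 ± 0.16, which missed the threshold among transcripts (edgeR adjusted p = 0.110).

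Features in introns of Arl5b were called in a contrast where Arl5b-202 was not. Arl5b-205 is annotated as a retained-intron transcript at 15069962 to 15073171 on chromosome 2, and 98.3% of its bases lie in intron 3 of Arl5b-202. It was chosen for description after its values were seen. It had 20.6 and 21.4 CPM in stimulated vehicle libraries and 112, 124 and 70.6 CPM in stimulated Compound 10 libraries. In unstimulated libraries it had 1.23 to 3.22 CPM under both treatments. In stimulated cells it was 4.86-fold higher with Compound 10, by 2.28 ± 0.41 (SE) on the log2 scale (adjusted p = 0.0197, edgeR over transcripts), where 4.92% of transcripts were called and 2.21% were called higher. The call was lost, with log2 fold changes of 2.12 to 2.31 and adjusted p of 0.0569 to 0.139 in edgeR's test, when DMSO_PI 1, DMSO_PI 2, Comp10_PI 1 or Comp10_PI 2 was left out. Per 100 counts of Arl5b-202, Arl5b-205 had 3.49 and 3.50 counts in stimulated vehicle libraries and 20.9, 19.8 and 10.7 in stimulated Compound 10 libraries. In unstimulated vehicle libraries the ratio was 9.72, 10.3 and 3.94, and in unstimulated Compound 10 libraries it was 4.64 and 4.58. The interaction of Arl5b-205 was 2.24 on the log2 scale and missed the threshold (edgeR adjusted p = 0.174), and it was called by DESeq2 (2.24, adjusted p = 0.00643).

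Gm38257, a tentative gene model on the same strand, lies wholly within intron 1 of Arl5b-202, at 15056713 to 15059473. It had 19.2 and 10.5 CPM in stimulated vehicle libraries and 75.2, 50.8 and 25.03 CPM in stimulated Compound 10 libraries. In unstimulated libraries it had 1.32 to 3.07 CPM. It was 3.41-fold higher with Compound 10 in stimulated cells, by 1.77 ± 0.46 (SE) on the log2 scale (edgeR adjusted p = 0.0165). The call was lost without DMSO_PI 2 (1.40, edgeR adjusted p = 0.158) or without Comp10_PI 1 (1.36, edgeR adjusted p = 0.0617). Per 100 counts of Arl5b-202, Gm38257 had 3.01 and 1.64 counts in stimulated vehicle libraries and 13.6, 8.05 and 3.75 in stimulated Compound 10 libraries. Its interaction was 1.94 ± 0.68 (SE) and missed the threshold (edgeR adjusted p = 0.114). That interaction passed with the index runs as a factor (1.77, edgeR adjusted p = 0.00407), the replicate block (2.55, 0.00311), DESeq2 (1.93, 0.0245) and no low-count filter (1.96, edgeR adjusted p = 0.000200). It also passed without DMSO_US 3 (2.24, edgeR adjusted p = 0.0475) or Comp10_PI 3 (2.26, 0.0478).

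Arl5b-201 starts at a distal exon upstream of the other Arl5b transcripts, inside the body of Nsun6 on the opposite strand. It was assigned 32.0, 36.4 and 19.9 estimated counts in unstimulated vehicle libraries and 142 and 70.5 in stimulated vehicle libraries. In each of the 5 Compound 10 libraries it was assigned 0. Against a floor of 3 counts over a group, it was at least 113-fold lower with Compound 10 in stimulated cells and at least 22.04-fold lower in unstimulated cells. The first limit was 64.0 without DMSO_PI 1, 183 without DMSO_PI 2, 72.0 without Comp10_PI 2 and 73.4 without Comp10_PI 3, and the second was 6.37 without Comp10_US 2. The fit over transcripts called Arl5b-201 lower with the compound in stimulated cells (edgeR adjusted p = 0.0146), and it did not pass in unstimulated cells (edgeR adjusted p = 0.120). This transcript was chosen after its values were seen, it takes at most 2.49% of the gene's counts, and how kallisto divides reads between it and Arl5b-202 was not tested.

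**Figure D3:**
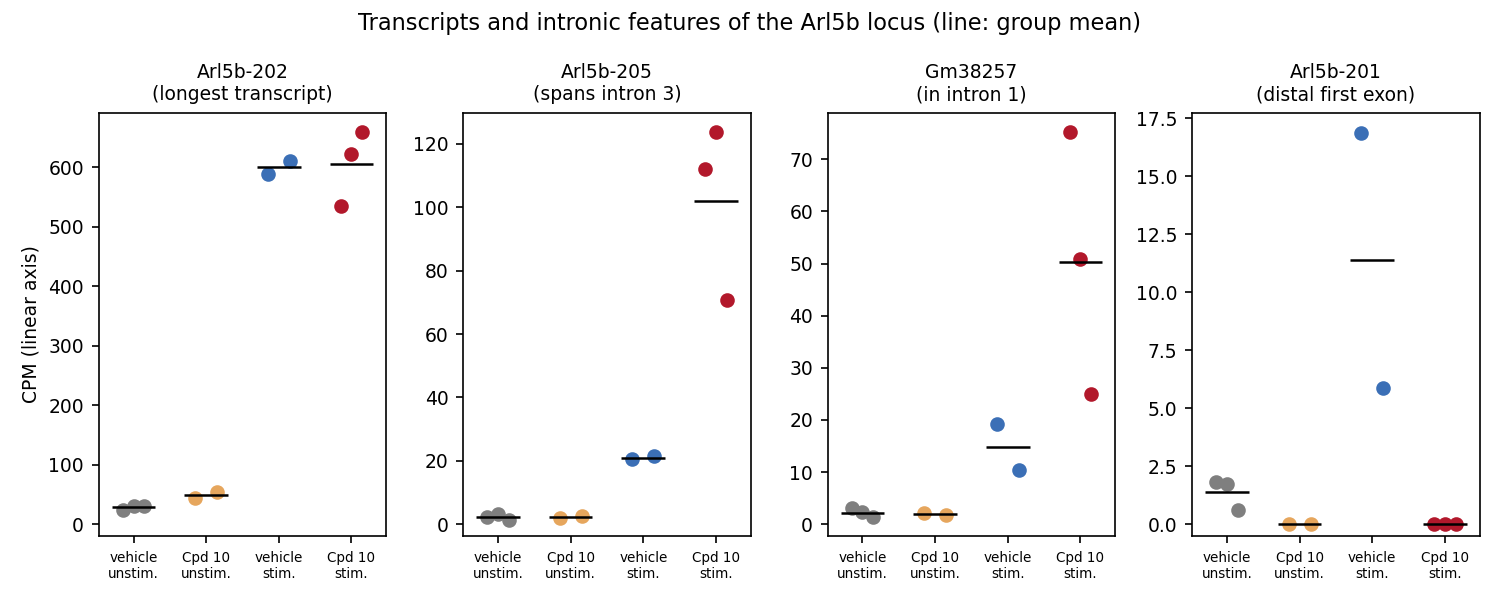
CPM of Arl5b-202, Arl5b-205, Gm38257 and Arl5b-201 in each library, by group, each panel with its own linear axis and a line at the group mean. Arl5b-202 is alike in height in both stimulated groups, Arl5b-205 and Gm38257 are highest with Compound 10, and Arl5b-201 is at 0 in all 5 Compound 10 libraries.

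Arl5b overlaps Nsun6, an RNA methyltransferase gene on the minus strand, over 5675 bases at the end that holds the first exon of Arl5b-201. Reads of both genes cannot be told apart there by strand, since it is not stated that the library kit kept the strand. By sequence, 13 of the 10491 stretches of 31 bases in Arl5b transcripts (0.124%) also occurred, on either strand, in transcripts of other genes. Nsun6 was at 7.31 to 8.22 CPM in unstimulated vehicle libraries, 9.71 and 11.0 in unstimulated Compound 10 libraries, 82.9 and 82.3 in stimulated vehicle libraries, and 56.8, 78.1 and 85.9 in stimulated Compound 10 libraries. Like Arl5b, Nsun6 was higher in every stimulated library than in any unstimulated one. It rose with stimulation by 3.42 ± 0.20 (SE) on the log2 scale under vehicle (edgeR adjusted p = 2.44e-07) and by 2.83 ± 0.21 with Compound 10 (edgeR adjusted p = 5.43e-06). Under the 10 other settings these rises ran from 2.00 to 3.48 and from 1.86 to 2.91. Between Compound 10 and vehicle Nsun6 stood at -0.17 ± 0.19 in stimulated cells (edgeR adjusted p = 0.582).

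Between the start of Nsun6 and the start of Arl5b-202 lie 170 bases, shown here because both genes that flank them rose with stimulation. The sequence is that of the plus strand at chr2:15055070-15055239, credited to RefSeq (GRCm38.p6), with capitals for a match to the cyclic AMP response element TGACGTCA, which bZIP factors of the CREB, ATF and AP-1 families bind.
Arl5b upstream region: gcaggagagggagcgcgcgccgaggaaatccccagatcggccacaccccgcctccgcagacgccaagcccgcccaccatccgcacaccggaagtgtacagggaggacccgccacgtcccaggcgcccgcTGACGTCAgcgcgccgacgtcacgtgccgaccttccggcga
The match starts 41 bases before exon 1 of Arl5b-202. Of 32851 mouse promoter sequences, 0.493% hold that motif in their first 170 bases. The place of those bases relative to each gene's start was not matched, for this share and for those below. Searched on both strands, the Arl5b upstream region also holds 1 match to the NFAT core GGAAA, found in 43.7% of promoters, and 1 to the E-box CACGTG, found in 3.38%. It holds 0 matches to the AP-1 motif TGANTCA, found in 4.68% of promoters, and 0 to the EGR motif GCGNGGGCG, found in 2.23%. Such a match describes the letters only.

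Around Arl5c, 14 protein-coding genes lie at least in part within 250 kb, and 13 were tested. With Compound 10 in unstimulated cells, 1 of the 13 rose and 0 fell (7.69%, beside 8.43% of all tested genes, with a median log2 fold change of -0.05 against 0.00 over all). In stimulated cells 2 rose and 2 fell (30.8% beside 23.2%, median -0.0075 against 0.04). The nearest tested gene on the upstream side, Cacnb1, which encodes a calcium channel beta subunit, lies 5327 bases away on the same strand. Cacnb1 had 2.36, 2.38 and 1.84 CPM in unstimulated vehicle libraries, 9.13 and 6.53 in unstimulated Compound 10 libraries, 4.64 and 4.93 in stimulated vehicle libraries, and 13.9, 12.2 and 10.3 in stimulated Compound 10 libraries. Its groups did not overlap, and the order was the same as for Arl5c except that the unstimulated Compound 10 libraries stood closer to the stimulated ones. Cacnb1 rose with Compound 10 by 1.84 ± 0.27 (SE) on the log2 scale in unstimulated cells (edgeR adjusted p = 0.00339) and by 1.34 ± 0.28 in stimulated cells (edgeR adjusted p = 0.00570). The call in unstimulated cells was lost with only the groups compared in the fit (edgeR adjusted p = 0.0513), and that in stimulated cells without DMSO_PI 1 (1.29, edgeR adjusted p = 0.0589). On the other side, Plxdc1 lies 3134 bases from Arl5c and had 0 to 1.55 CPM. Of the other neighbours in stimulated cells, Fbxl20 rose with Compound 10 by 1.33 ± 0.17, and Cwc25 fell by 1.28 and Med1 fell by 0.46 on the log2 scale (edgeR adjusted p = 0.000319, 0.00117 and 0.0479), and the call of Med1 was lost under 12 of its 20 alternatives. With stimulation under vehicle 3 neighbours rose and 1 fell (30.8% beside 39% of all tested genes), or 0 and 4 with library totals alone. The rises were those of Rpl19 (0.84), Cacnb1 (1.13) and Cdk12 (0.54), and none of these was called with library totals alone, where Cdk12 stood at -0.24, and Fbxl20 fell by 1.43. With stimulation under Compound 10, 1 neighbour rose and 0 fell (7.69% beside 26.5%), or 0 and 2 with library totals alone.

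**Figure D4:**
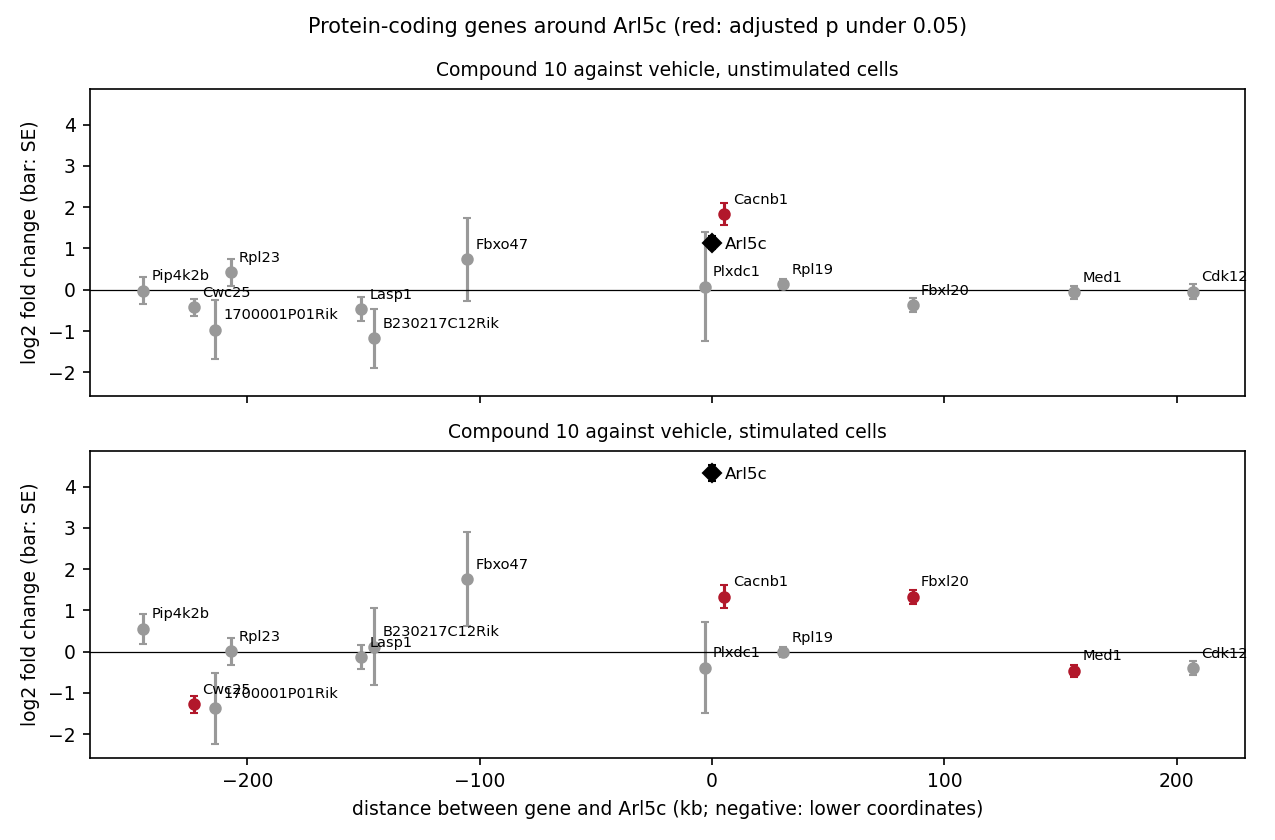
Log2 fold change with Compound 10, with bars for the SE, against the distance from Arl5c in kb, for the 13 tested neighbours (red where called, grey otherwise) and Arl5c (black diamond), in unstimulated cells above and stimulated cells below. Cacnb1 is the called gene nearest to Arl5c in both panels, at 1.84 and 1.34.

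Over the 10 libraries, the genes whose log2 CPM was most like that of Arl5c among 11412 compared were Rnf34 (Pearson r = 0.984), Prss16 (0.980), Panx1 (0.978), Lpar6 (0.975) and Enthd1 (0.974). Of these, Prss16 (0.49 to 5.57 CPM) and Enthd1 (0.27 to 2.92 CPM) were near the floor, where the prior count of 2 weighs on log2 CPM. Rnf34 encodes a ubiquitin ligase and had 36.2 to 50.3 CPM in 7 libraries and 106 to 134 CPM in the 3 stimulated Compound 10 libraries. The most opposite were Ctr9 (-0.993), Ints14 (-0.986), Wrap73 (-0.983), Timm29 (-0.981) and Serinc1 (-0.980). Ctr9, a subunit of the PAF1 complex that travels with RNA polymerase II, had 128 to 157 CPM in 7 libraries and 51.4 to 54.2 CPM in the 3 stimulated Compound 10 libraries. Against Arl5c, Arl5a had r = -0.81 and Arl5b r = 0.65. The points share their libraries and their scaling, and the stimulated Compound 10 libraries stand apart from the rest in Arl5c, so these values describe likeness and were not tested.

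The rest of the ARF family holds 27 genes on the list used, of which 22 were tested. With Compound 10 in stimulated cells, 3 rose and 8 fell, 50% of those tested beside 23.2% of all tested genes, and their median log2 fold change was -0.39 against 0.04 over all genes. The largest steps among those with the smallest adjusted p were falls of Arl16 and Arl1 and a rise of Arl4c. Arl1, which recruits golgins to the trans-Golgi network, went from 65.2 and 73.1 CPM with vehicle to 23.4, 20.4 and 19.6 CPM with the compound (-1.71 ± 0.17, SE; edgeR adjusted p = 9.21e-05). Arl16 was at -1.88 ± 0.25 (edgeR adjusted p = 0.000354). Arl4c, an ARF family member tied to the cell surface and cytoskeleton, went from 10.9 and 16.01 CPM to 51.5, 46.6 and 46.6 CPM (1.83 ± 0.27; edgeR adjusted p = 0.000687). In unstimulated cells 1 rose and 3 fell (18.2% beside 8.43% of all tested genes, median -0.04 against 0.00 over all, or 0.0032 with upper-quartile factors), where Arl3 fell by 1.77, Arf2 fell by 0.93 and Arfrp1 rose by 0.61 on the log2 scale (edgeR adjusted p = 0.0142, 0.0222 and 0.0339). These calls were lost with only the unstimulated groups in the fit, where edgeR called 0 of the list, and without Comp10_US 1 (edgeR adjusted p of 0.0503 to 0.139). With stimulation under vehicle 8 rose and 3 fell (50% beside 39%, median 0.03 against -0.06), or 4 and 10 with library totals alone (median -0.74), and the rises of Arf4 (1.75), Arfrp1 (1.55) and Arl8b (1.41) were called under both scalings. With stimulation under Compound 10, 8 rose and 5 fell (59.1% beside 26.5%, median 0.53 against -0.01), or 2 and 7 with library totals alone (median -0.07).

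**Figure D5:**
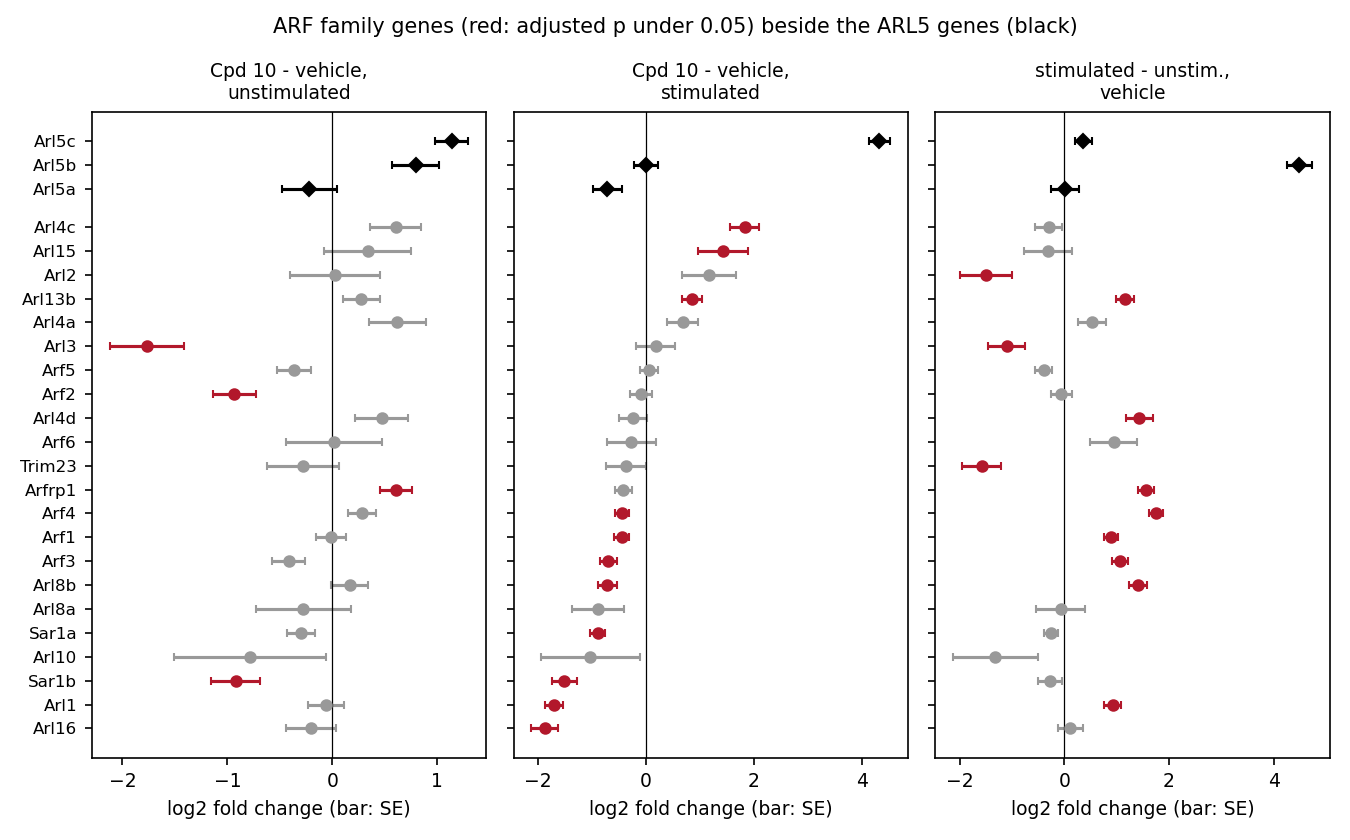
Log2 fold changes with bars for the SE of 22 tested ARF family genes (red where called, grey otherwise) and the 3 ARL5 genes (black diamonds) in 3 contrasts, ordered by the contrast in stimulated cells. The middle panel shows the contrast by which Arl5c, at 4.33, was chosen, so its place to the right follows from that choice. Arl4c, at 1.83, is the highest of the 22 there.

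Among ARL5 partners and the trans-Golgi tethering machinery, 21 of 22 listed genes were tested. In unstimulated cells 0 rose and 2 fell with Compound 10, 9.52% of those tested and near the 8.43% called over all tested genes (median -0.095 against 0.00). In stimulated cells 4 rose and 3 fell (33.3% beside 23.2%, median 0.22 against 0.04). Of the GARP subunits that ARL5 proteins recruit, Vps54 fell in both settings, by 1.04 (edgeR adjusted p = 0.0180) and by 0.66 (edgeR adjusted p = 0.0467) on the log2 scale, and Vps51, Vps52 and Vps53 did not pass in either. Armh3, an ARL5 effector, and Pi4kb, the lipid kinase it binds, did not pass in either contrast of the compound. The cargo receptor M6pr went from 935 and 961 CPM to 326, 357 and 366 CPM with Compound 10 in stimulated cells (-1.44 ± 0.13, SE; edgeR adjusted p = 6.97e-05). The SNARE genes Stx6 and Vamp4 moved in opposite directions there, at -1.30 ± 0.15 and 1.07 ± 0.21 (edgeR adjusted p = 0.000190 and 0.00344). In unstimulated cells Gcc2, a golgin, fell by 0.74 (edgeR adjusted p = 0.0290), and M6pr stood at -0.48 (edgeR adjusted p = 0.0517). The calls of Vps54 and Gcc2 in unstimulated cells were lost without Comp10_US 1 (edgeR adjusted p = 0.0539 and 0.109) and with only the unstimulated groups in the fit. With stimulation under vehicle 4 rose and 8 fell (57.1% beside 39%, median -0.30 against -0.06), or 3 and 16 with library totals alone, and M6pr, Stx6 and Tgoln1 rose by 2.02, 2.15 and 1.32. With stimulation under Compound 10, 3 rose and 2 fell (23.8% beside 26.5%, median 0.0012 against -0.01), or 2 and 9 with library totals (median -0.59).

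Of the exchange factors and GAPs, 31 of 38 listed genes were tested. In unstimulated cells 4 rose and 0 fell with Compound 10 (12.9% beside 8.43% of all tested genes, median 0.07 against 0.00, or -0.0032 with library totals alone), with the GAP genes Arap2 at 1.30, Acap3 at 0.92 and Acap1 at 0.91 (edgeR adjusted p = 0.00986, 0.0311 and 0.0185). These calls were lost with only the unstimulated groups in the fit, where edgeR called 0 of the list and 122 genes in all, and without Comp10_US 1 (edgeR adjusted p of 0.0596 to 0.192). In stimulated cells 5 rose and 3 fell (25.8% beside 23.2%, median 0.17 against 0.04), and the GAP genes Arfgap1 and Arfgap2, which act at the Golgi, fell by 1.55 and 0.85 while Acap1 rose by 1.31 (edgeR adjusted p = 0.000240, 0.00240 and 0.00107). With stimulation under vehicle 9 rose and 5 fell (45.2% beside 39%, median -0.0021 against -0.06, or 0.011 with RLE factors), or 2 and 15 with library totals alone, with Agfg1 at 1.51, Acap3 at 1.46 and Arfgap1 at 1.22 (0.44 and not called with library totals). With stimulation under Compound 10, 5 rose and 2 fell (22.6% beside 26.5%, median 0.18 against -0.01), or 2 and 9 with library totals alone (median -0.41).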

How the data were processed

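RNA of 10 samples was sequenced after library preparation with a SMART-seq kit, per the labels' protocols. Tools listed per the submitters' processing notes are cutadapt and kallisto, and the build is mm10. Their versions and annotation, in the sources used here, are not given. The authors deposited estimated counts and TPM per transcript, per the file headers. TPM keeps no depth, and estimated counts of genes that share sequence are uncertain.

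Transcripts were matched by Ensembl identifier to GENCODE M21, which placed 108214 of 109617 (the other 1403 held 0.507% to 0.671% of counts and were left out). Counts were summed per gene, rounded and fitted with edgeR 4.0.16 (quasi-likelihood test, TMM factors, filterByExpr by group, 1 coefficient per group, Benjamini-Hochberg over 14417 genes) in R 4.3.3, with the same fit over 37354 transcripts chosen after seeing the data. The SE was taken from the F statistic, and CPM are mean ± SD over libraries. Alternatives used DESeq2 1.42.0, limma 3.58.1 on log2(TPM + 1), other scalings and filters, the index runs (13 to 16, 19 to 22 and 25 to 29) and omissions of a library. Library pairs within a group differed by more than sampling noise (chi-square per degree of freedom at least 14.8).

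The members and lists were chosen with earlier results of these data known. Named list genes are up to 3 per list with the smallest adjusted p in the Compound 10 contrasts and in stimulation under vehicle, every called neighbour of Arl5c, genes overlapping a member, and the 5 genes most and least like Arl5c, leaving out unnamed gene models.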

Additional observations from a re-analysis of the deposited data

Results flagged for a closer look

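The effect of Compound 10 differed between stimulated and unstimulated cells for 11 genes named beside the ARL5 members. These had an adjusted p under 0.05 over all tested genes for edgeR's interaction term, by which 6.63% of tested genes were called. Many of them were named for a small adjusted p in the contrasts that make up this term. Their number is therefore no result about the lists, and their adjusted p is not independent of that choice. Values are the log2 effect in stimulated cells minus that in unstimulated cells. It was below 0 for the SNARE gene Stx6 (-1.73, adjusted p = 0.00215), for Arl16 (-1.68, 0.0160), Arl1 (-1.65, 0.00360), Arfgap1 (-1.55, 0.00804), Arfrp1 (-1.03, 0.0190), M6pr (-0.96, 0.0138) and Arf4 (-0.72, 0.0418). It was above 0 for Arl3 (1.95, 0.0418), Fbxl20 (1.70, 0.00270), Vamp4 (1.10, 0.0426) and Gcc2 (1.05, 0.0333). Stx6 stood at 0.43 in unstimulated and -1.30 in stimulated cells, and Fbxl20, a neighbour of Arl5c, at -0.37 and 1.33. No group held enough libraries for a test of single outlying samples.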

How the results depend on the processing

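Members were fitted under 10 other settings (9 for interactions) and 10 omissions of a library. Arl5c kept its sign in every contrast except stimulation under vehicle (-0.41 with library totals alone, -0.30 with limma). In unstimulated cells the effect of Compound 10 on it was not called in the fit of only the groups compared (1.15). Its other values moved to 4.46 (upper-quartile factors) and 4.07 (limma) for Compound 10 in stimulated cells, 2.96 (library totals) and 2.84 (limma) for stimulation with Compound 10, and 3.37 (library totals) and 2.98 (replicate block) for the interaction. Arl5b in unstimulated cells lost its call with RLE factors (0.78), library totals (0.71), only the groups compared (0.81) and limma (0.74), and omissions gave 0.61 to 0.99. Its difference in stimulated cells changed sign with RLE factors (-0.026), DESeq2 (-0.026), the CPM filter (-0.00091), the replicate block (-0.18) and the index runs (-0.18), and omissions gave -0.14 to 0.12 (below 0 without DMSO_US 1, DMSO_US 2, Comp10_US 2, DMSO_PI 1 and Comp10_PI 3). Its interaction passed with the replicate block (-1.15) and the index runs (-0.85), and omissions gave -0.99 to -0.62. Arl5a passed for Compound 10 in stimulated cells with DESeq2 (-0.75, in a range of -0.75 to -0.16 over the 10 settings) and for stimulation with Compound 10 with library totals (-1.08). Its stimulation under vehicle changed sign with upper-quartile factors (-0.0026), library totals (-0.77), no filter (-0.095), limma (-0.60), the replicate block (-0.075) and the index runs (-0.046), and omissions gave -0.11 to 0.081. Its interaction was 0.10 with limma. Cdk12 with stimulation under vehicle was -0.24 with library totals and -0.57 with limma. The cause of these changes was not tested.

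Correlations of deviations from the group mean between libraries with the same replicate number ran from -0.28 to 0.33. In a group of 2 libraries the deviations mirror each other, so these values cannot settle whether replicate numbers pair libraries. The same check was not run for the index runs. The replicate block called 1631, 3970, 5964, 4469 and 1504 genes for Compound 10 in unstimulated and stimulated cells, stimulation under vehicle and with Compound 10 and the interaction, where 1215, 3350, 5617, 3816 and 956 were called without it. With the index runs as a factor, 2403, 4595, 6457, 4679 and 2167 genes were called in the same order. What the index runs stand for is not given. Library totals put the median gene at -0.83 and -0.60 in the stimulation contrasts and at 0.15 for Compound 10 in stimulated cells, and upper-quartile factors put the last at 0.18 (-0.055, -0.014 and 0.042 with TMM). Calls split into 1202 higher and 6610 lower with library totals for stimulation under vehicle (2814 and 2803 with TMM), into 810 and 5219 with Compound 10 (1844 and 1972), and into 2090 and 1528 with upper-quartile factors for Compound 10 in stimulated cells (1502 and 1848). With only the groups compared, which left 122 calls over all genes in unstimulated cells, the 4 lists had 0 calls there. ARF family genes called numbered 6 with limma for Compound 10 in stimulated cells, and omissions gave 0 to 4 and 6 to 12 for the compound and 8 to 15 for stimulation with it. ARL5 partners called in unstimulated cells numbered 5 with DESeq2 and the index runs, 4 with the replicate block and 1 with limma, and omissions gave 0 to 3. In stimulated cells they numbered 3 with limma, and omissions gave 3 to 8. For stimulation they numbered 19 with library totals under vehicle and 11 with library totals, 3 without a filter and 3 with only the groups compared under Compound 10, where omissions gave 2 to 6. Exchange factors and GAPs numbered 2 with library totals and 0 with limma in unstimulated cells and 11 with library totals for stimulation with Compound 10, and omissions gave 0 to 4, 3 to 11, 6 to 14 and 3 to 8 in the 4 contrasts. Neighbours of Arl5c numbered, for stimulation with Compound 10, 2 with library totals, only the groups compared, limma and the index runs and 3 without a filter and with the replicate block, and omissions gave 1 to 2 there and in unstimulated cells and 2 to 4 in stimulated cells. A group of 2 left with 1 library was assumed to vary like the others.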
